A study of Rattus norvegicus with 9 samples.

Results

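The genes described here encode the receptors with which macrophages bind the constant part of immunoglobulin G, the adaptor chain that carries their signal, and the kinase, docking protein and lipid phosphatase that act just inside the membrane. The set was Fcgr1a, Fcgr2a, Fcgr2b, Fcgr3a, Fcer1g, Syk, Dok2 and Inpp5d, and a gene was measured where a probe set of the array carries its symbol and no other. This held for 7 of the 8 genes, with 1 probe set each, among 31099 probe sets and 14218 genes that have a probe set of 1 symbol. Fcgr2a has no such probe set.

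Expression was measured in CD68+ cells of male Wistar rats with no genetic modification, in 3 groups of 3 arrays. Blood cells were mononuclear cells isolated on a density gradient, selected with the CD68 antibody ED1 and not cultured. In vitro activated cells were blood cells selected in the same way and kept for 3 days on PTFE, the polymer of vascular grafts, coated with fibrinogen (FG). FBR cells came from the neotissue that formed within 3 days on photo-oxidized bovine pericardium patches held in steel cages in the peritoneal cavity, and were freed by collagenase and plasmin before the same antibody selection. Cells of all groups were thus bound to beads through an antibody, and FBR cells alone went through enzyme digestion. The methods also describe an uptake of polystyrene particles by isolated CD68+ cells. Whether cells used for the arrays went through it is not stated. The number of rats behind each array is not given in the sources used here, so n counts arrays, which the sample titles call biological replicates.

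Receptors for immunoglobulin G come in activating and inhibitory forms. In activating receptors the signal runs through the Fc receptor γ chain, whose ITAM motif is phosphorylated by Src family kinases and then bound by the kinase Syk, and this starts phagocytosis and cytokine release. The inhibitory receptor Fcgr2b carries an ITIM motif, which recruits the lipid phosphatase SHIP-1 (Inpp5d), and docking proteins such as Dok2 bring in RasGAP and dampen the Ras pathway. In macrophages the balance of the receptor forms sets the response to surfaces or particles coated with antibody. In the rat genome assembly GRCr8, Fcgr2b, Fcgr3a and Fcgr2a lie in this order next to each other on chromosome 13, and Fcer1g is found further along the same stretch, after 9 other genes. Fcgr1a lies on chromosome 2, Syk on 17, Dok2 on 15 and Inpp5d on 9.

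Signals are MAS5 values on a linear scale, with the trimmed mean of each array between 498.9 and 501.5. The correlation between arrays was 0.93 to 0.976 within a group and 0.793 to 0.897 between groups. Cd68, the target of the selection, had a mean signal of 7905 ± 4136 in blood, 30367 ± 7279 after in vitro activation and 21782 ± 2623 in FBR cells (SD, n = 3 arrays). The blood arrays also held lymphocyte RNA. The summed signal of 10 B cell markers was 58296 to 80975 in blood, 6490 to 13081 in in vitro activated and 2339 to 4687 in FBR cells, and no B cell marker was under a signal of 50 on any blood array. That of 13 T cell markers was 6916 to 8007, 1972 to 2908 and 1647 to 2704, and that of 12 NK cell markers 2869 to 8659, 381 to 483 and 315 to 487. Summed over 10 macrophage markers the signal was 31575 to 54451 in blood, 106845 to 166245 in in vitro activated and 147125 to 177272 in FBR cells. Blood replicate 2 had the lowest macrophage sum (31575) and the highest NK cell sum (8659) of its group, so values are also given without it where it moved a call or a value by over 1.5 times. Among the macrophage markers 4 rose after in vitro activation and 8 in FBR cells relative to blood cells, while 9 and 10 of the 10 B cell markers fell. Over all probe sets 11.4% rose and 13.4% fell in the first of these comparisons and 10.9% and 20.0% in the second. Blnk did not fall in in vitro activated cells, where its 5389 to 9244 made up most of the B cell sum. In FBR cells Blnk (mean 1357) and Cd22 (mean 1355) had the highest signals of the B cell list. In such bulk samples, fewer cells of a type and less RNA per cell cannot be told apart.

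**Figure D1:**
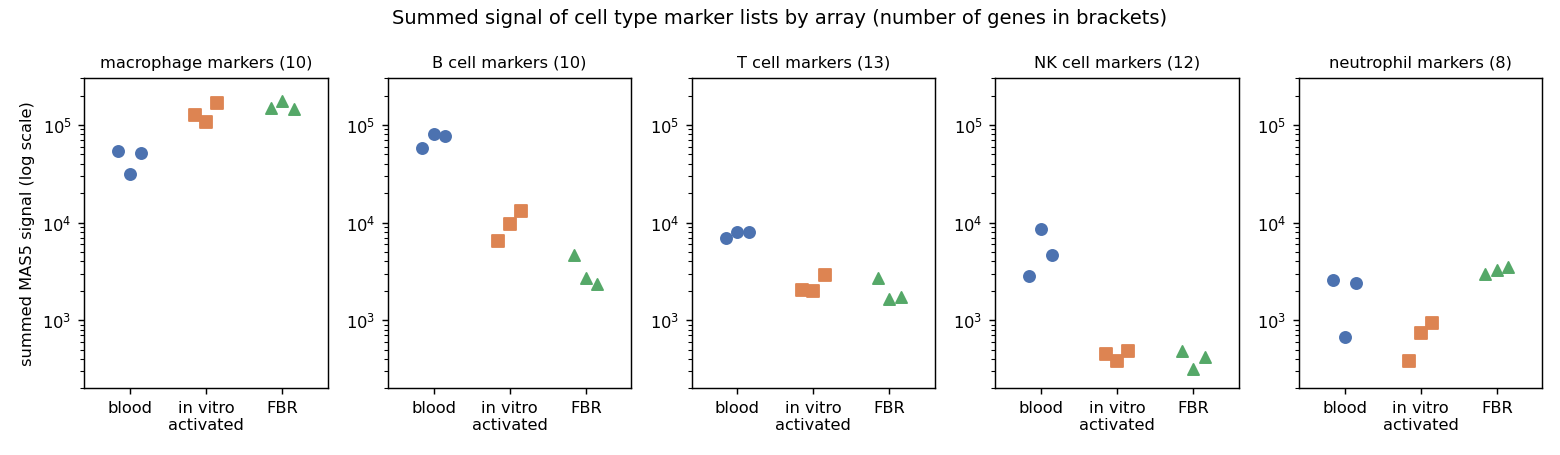
Summed MAS5 signal (log scale) of 5 lists of cell type markers on each array of blood, in vitro activated and FBR CD68+ cells, with 1 point per array and the number of genes of each list in brackets. The B cell sum lies at 58296 to 80975 on the blood arrays and at or under 13081 on all others, and the macrophage sum is lowest on the blood arrays.

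The promoters of Fcgr3a, Syk and Inpp5d, 3 of the 7 measured genes, were matched in RefSeq sequences of GRCr8. A pair is shown because Fcgr3a was the gene that fell and Inpp5d the phosphatase that passed in no comparison, and because both carry the core of the site bound by PU.1, a transcription factor of the myeloid lineage. Each window covers 300 bases, of which 50 follow the annotated start of the gene. It is written 5′ to 3′ on the strand of the gene, with GAGGAA or its reverse complement TTCCTC in capitals. The Fcgr3a window is chr13:85782386-85782685 (plus strand) and the Inpp5d window chr9:95735283-95735582 (plus strand).
Fcgr3a: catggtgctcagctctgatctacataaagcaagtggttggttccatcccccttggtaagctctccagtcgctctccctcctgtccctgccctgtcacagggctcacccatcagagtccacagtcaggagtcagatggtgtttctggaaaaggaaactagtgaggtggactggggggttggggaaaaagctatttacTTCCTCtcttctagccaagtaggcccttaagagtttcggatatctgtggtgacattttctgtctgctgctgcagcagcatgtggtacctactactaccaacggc
Inpp5d: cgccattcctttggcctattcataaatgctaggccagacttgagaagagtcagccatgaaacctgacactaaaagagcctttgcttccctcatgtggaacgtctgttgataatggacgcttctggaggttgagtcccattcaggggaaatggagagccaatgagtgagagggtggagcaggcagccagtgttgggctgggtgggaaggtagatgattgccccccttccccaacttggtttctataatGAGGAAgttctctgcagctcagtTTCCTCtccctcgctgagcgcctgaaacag
In Fcgr3a the core begins 54 bases before the start, on the other strand. In Inpp5d a core on the gene strand begins 3 bases before the start and runs across it, and another on the other strand begins at base 21 of the gene. The Syk window, chr17:12813224-12813523 (minus strand), holds 1 core, 62 bases before the start. The core was present on either strand in 27.6% of 33469 rat promoters of this length. TTCNNNGAA, the GAS element that STAT factors bind, was in 8.87% of them and not in these 3 windows. A match of letters describes the window and is no evidence of binding.

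In FBR cells 4 of the 7 genes were higher than in blood cells, which were Fcgr2b, Dok2, Fcgr1a and Fcer1g, and none was lower (limma, adjusted p under 0.05 over all probe sets). After quantile normalization 2 were higher (Fcgr2b and Dok2) and 1 was lower (Syk). Of all probe sets 30.9% passed in this comparison, 10.9% of them as higher and 20.0% as lower. The median log2 fold change of the genes was 1.19, beside -0.17 for all probe sets. In 6 of the 7 the FBR and blood arrays did not overlap, which held for 47.8% of all probe sets. Activation in vitro was followed by a difference from blood cells in 2 of the 7, with Dok2 higher and Fcgr3a lower. In that comparison 24.8% of all probe sets passed (11.4% higher and 13.4% lower), and the arrays did not overlap in 4 of the genes and in 39.3% of all probe sets. The median was 0.71 for the genes and 0.05 for all probe sets. FBR cells were above in vitro activated cells in Fcgr2b and Dok2, and in none of the 7 below them. Here 22.5% of all probe sets passed, 7.81% higher and 14.7% lower, and the arrays did not overlap in 5 of the genes and in 42.0% of all probe sets. The median was 0.72 beside -0.24 over all probe sets. The comparisons share arrays pairwise, so they are not independent of each other. With 3 arrays against 3, groups that do not overlap cannot give an exact permutation p (two-sided) below 0.1.

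**Figure D2:**
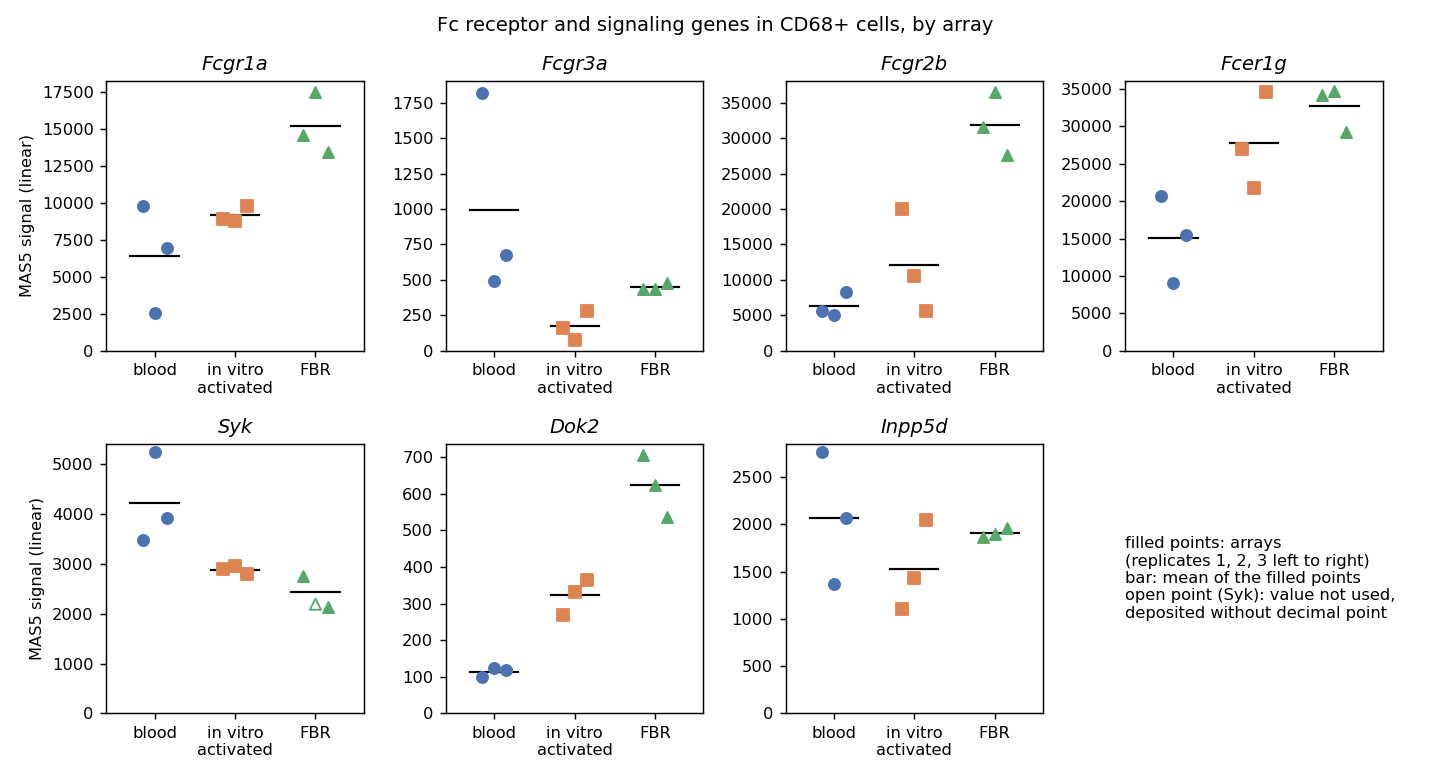
MAS5 signal (linear) of the 7 measured genes on each array of blood, in vitro activated and FBR CD68+ cells, with a bar at the mean of the filled points. FBR arrays are the highest in Fcgr1a, Fcgr2b and Dok2, in vitro activated arrays the lowest in Fcgr3a, and the open point of Syk is the FBR value that was not used.

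Fcgr2b, the inhibitory receptor, had the largest increase in FBR cells among the 3 receptors with a probe set of their own. The 2 probe sets shared by Fcgr2a and Fcgr2al1 rose by 1.43 and 2.48 on the log2 scale against blood, beside 2.36 for Fcgr2b. The Fcgr2b probe set (1371079_at) gave 5605, 5037 and 8221 on the blood arrays, 20042, 10586 and 5615 on the in vitro activated arrays and 31612, 36474 and 27559 on the FBR arrays. All FBR arrays stood above the other 6, while in vitro activated replicate 3 lay within the range of the blood arrays. FBR cells exceeded blood cells by a log2 fold change of 2.36 (standard error 0.42, 95% interval 1.44 to 3.29, adjusted p = 0.0017), or 5.14-fold. They exceeded in vitro activated cells by 1.58 (0.65 to 2.50, adjusted p = 0.022), or 2.98-fold. Leaving out in vitro activated replicate 2, FBR replicate 1 or FBR replicate 2 left this second difference at 1.58, 1.58 and 1.48, with adjusted p-values of 0.054, 0.058 and 0.077. Between in vitro activated and blood cells the difference was 0.79 (-0.14 to 1.71, adjusted p = 0.21), and it rested on single arrays, with 1.24 (adjusted p = 0.031) without in vitro activated replicate 3 and 0.33 (adjusted p = 0.57) without replicate 1. B cells, whose markers were high in blood only, are known to express Fcgr2b as well, and the part of their loss in these differences was not tested.

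Fcgr1a encodes the high-affinity receptor for immunoglobulin G. Its signal (1393038_at) was 9796, 2543 and 6922 in blood, 8904, 8765 and 9804 in in vitro activated and 14621, 17506 and 13455 in FBR cells. The FBR arrays again stood above all others, and the in vitro activated arrays lay within 1.12-fold of each other, around the level of the highest blood array. FBR cells were 2.71-fold above blood cells (log2 fold change 1.44, standard error 0.42, 95% interval 0.50 to 2.38, adjusted p = 0.025). This call ended without FBR replicate 1, 2 or 3 (adjusted p = 0.061, 0.085 and 0.053) and after quantile normalization (0.92, adjusted p = 0.18). Without blood replicate 2, the low array, the change was 0.87 (adjusted p = 0.032). In vitro activated cells differed from blood cells by 0.71 (-0.23 to 1.65, adjusted p = 0.26) and FBR from in vitro activated cells by 0.72 (-0.22 to 1.66, adjusted p = 0.26). Without blood replicate 2 these were 0.15 (adjusted p = 0.73) and 0.72 (adjusted p = 0.046). The macrophage marker sum, like Fcgr1a, was lowest on blood replicate 2 and higher on all FBR than on all blood arrays. On the in vitro activated arrays this sum was 106845 to 166245, against 31575 to 54451 in blood. Fcgr1a was 8765 to 9804 there, beside 2543 to 9796 in blood. Within each group Fcgr1a and this sum ranked the arrays in the same order. The part of the macrophage sum in the change was not tested.

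Fcgr3a ran the other way. RefSeq gives this rat gene the synonym Fcgr4, which in the mouse names an activating receptor that depends on the γ chain. The probe set 1373523_at had signals of 1816, 494 and 676 in blood, 158, 76.9 and 278 in in vitro activated and 436, 438 and 481 in FBR cells. Every in vitro activated array lay below every other array, and the FBR arrays were close together just under the lowest blood array. In vitro activated cells were 5.14-fold below blood cells (log2 fold change -2.36, standard error 0.50, 95% interval -3.48 to -1.24, adjusted p = 0.0069). The change was -2.74 without blood replicate 2 (adjusted p = 0.0077). In FBR cells the difference from blood was -0.89 (-2.01 to 0.23, adjusted p = 0.22), and -0.34 (adjusted p = 0.63) without blood replicate 1, the high array. Against in vitro activated cells the difference was 1.48 (0.36 to 2.59, adjusted p = 0.06), and it passed in 8 of the alternatives, among them the filter on low signals (adjusted p = 0.034) and the fit without in vitro activated replicate 3 (1.88, adjusted p = 0.03). NK cells are known to carry receptors of the CD16 group, and the NK cell sum fell from 2869 to 8659 in blood to 381 to 483 in in vitro activated cells. Within blood Fcgr3a was highest on replicate 1, where the NK cell sum was lowest (2869). It was lowest on replicate 2, where this sum was highest (8659). The summed signal of 8 neutrophil markers was 2611, 669 and 2399 on the blood arrays. In in vitro activated cells the neutrophil sum was 381 to 933, and in FBR cells 2944 to 3506. The part of NK cells or neutrophils in the differences between groups was not tested.

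Fcer1g, the γ chain itself, is the adaptor that activating receptors need at the cell surface in the mouse. Its signals (1373575_at) were 20705, 9096 and 15425 in blood, 26962, 21801 and 34578 in in vitro activated and 34266, 34785 and 29256 in FBR cells. All arrays of both other groups stood above the blood arrays, and these groups overlapped each other. FBR cells were 2.29-fold above blood cells (log2 fold change 1.19, standard error 0.32, 95% interval 0.47 to 1.91, adjusted p = 0.017). The call was lost after quantile normalization (0.71, adjusted p = 0.12) and without FBR replicate 1 (1.16, adjusted p = 0.053) or replicate 2 (1.15, adjusted p = 0.059). The in vitro activated arrays exceeded the blood arrays by 0.93 (0.22 to 1.65, adjusted p = 0.06), a difference that passed in 6 of the alternatives. It was 0.58 (adjusted p = 0.21) after quantile normalization and 0.61 (adjusted p = 0.16) without blood replicate 2, where the difference between FBR and blood cells was 0.87 (adjusted p = 0.047). FBR and in vitro activated cells differed by 0.26 (-0.46 to 0.98, adjusted p = 0.61). Fcer1g is also part of the IgE receptor of mast cells and basophils. The summed signal of 12 markers of mast cells, basophils and eosinophils was 322 to 692 in blood, 321 to 676 in in vitro activated and 328 to 585 in FBR cells, and the IgE-binding chain Fcer1a had a mean signal of 30.2, 49.1 and 31.2. The macrophage sum was 31575 to 54451, 106845 to 166245 and 147125 to 177272 in these groups. Within each group it ranked the arrays as Fcer1g did. The part of any cell type in the change of Fcer1g was not tested.

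Syk, the kinase that binds the phosphorylated γ chain, had its highest values in blood and passed in no comparison. The signals of 1368186_a_at were 3471, 5255 and 3925 in blood and 2889, 2965 and 2800 in in vitro activated cells. In FBR cells they were 2762 and 2127, and the value of FBR replicate 2 was deposited in a form with more than 1 reading and was left out of the fit. Every blood array lay above every array of the other groups. The log2 fold change was -0.52 in in vitro activated (standard error 0.25, 95% interval -1.09 to 0.05, adjusted p = 0.17) and -0.77 in FBR cells (-1.41 to -0.14, adjusted p = 0.068, n = 2 FBR arrays) relative to blood cells. With the missing value read as 2192, the candidate nearest to the other arrays, the FBR value was -0.82 and passed (adjusted p = 0.025). It also passed in 6 other alternatives, while median centring reduced it to -0.44 (adjusted p = 0.3). FBR and in vitro activated cells differed by -0.25 (-0.89 to 0.39, adjusted p = 0.58). B cells use Syk below their antigen receptor, and their marker sum was also highest on the blood arrays. Blood replicate 2 held the highest values of both, 5255 for Syk and 80975 for the B cell sum, and the part of these cells in the difference was not tested.

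Dok2, a docking protein that restrains signals from tyrosine kinases in myeloid cells, was the 1 gene of the 7 that passed in all 3 comparisons. Its signals (1385336_at) were 99.1, 125 and 119 in blood, 270, 332 and 365 in in vitro activated and 706, 624 and 537 in FBR cells. No arrays of different groups overlapped. In vitro activated cells were 2.59-fold above blood cells (log2 fold change 1.37, standard error 0.23, 95% interval 0.86 to 1.89, adjusted p = 0.002). FBR cells were 4.9-fold above blood cells (2.29, 1.77 to 2.81, adjusted p = 7.1e-05) and 1.89-fold above in vitro activated cells (0.92, 0.40 to 1.43, adjusted p = 0.018). Both differences from blood passed in all alternatives tried. The difference between FBR and in vitro activated cells did not pass without in vitro activated replicate 1 (0.80, adjusted p = 0.059), FBR replicate 1 (0.82, adjusted p = 0.063) or FBR replicate 2 (0.91, adjusted p = 0.062). The study listed Dok2 on these same samples, so its direction is not independent evidence.

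Inpp5d, which encodes the lipid phosphatase SHIP-1, did not pass in any comparison. The probe set 1387198_at gave 2771, 1369 and 2063 in blood, 1104, 1437 and 2044 in in vitro activated and 1870, 1895 and 1963 in FBR cells. The 3 groups overlapped, and all FBR values lay within the range of the blood arrays. The log2 fold change was -0.42 (-1.12 to 0.28, adjusted p = 0.38) in in vitro activated and -0.06 (-0.76 to 0.64, adjusted p = 0.92) in FBR cells relative to blood cells, and 0.36 (-0.34 to 1.06, adjusted p = 0.45) between FBR and in vitro activated cells. Relative to blood cells these 95% intervals leave room for changes down to -1.12 in in vitro activated and up to 0.64 in FBR cells. Between FBR and in vitro activated cells they leave room for a change of up to 1.06. Without blood replicate 2 the values against blood were -0.69 (adjusted p = 0.15) in in vitro activated and -0.32 (adjusted p = 0.5) in FBR cells. With each array centred on its median the FBR value against blood was 0.31, so the sign of this small difference is not settled.

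**Figure D3:**
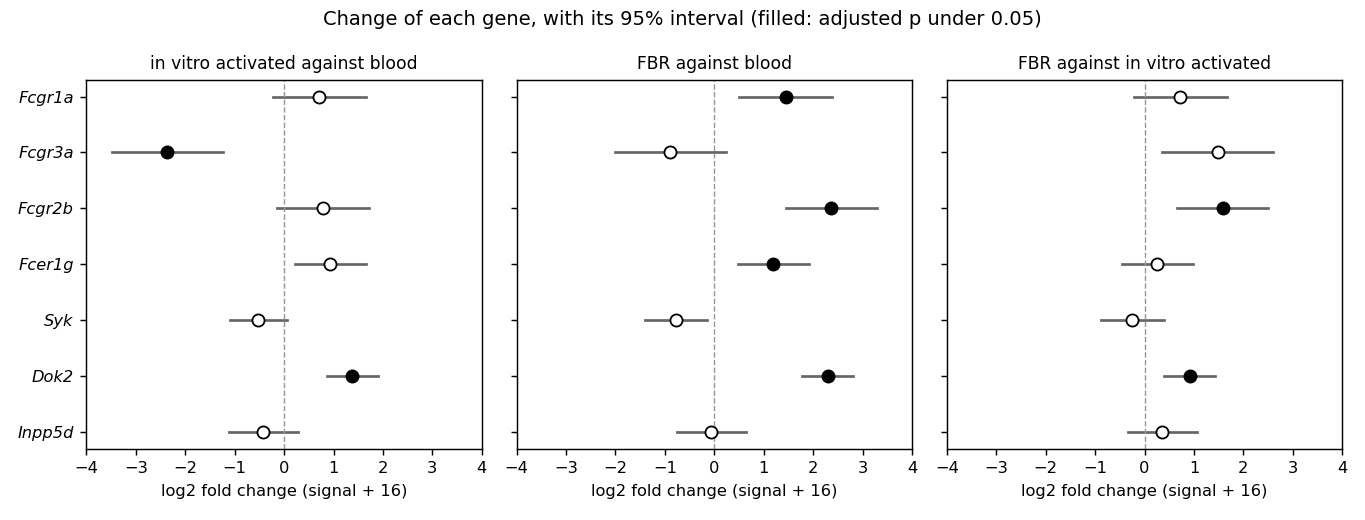
Log2 fold change (signal plus 16) of each measured gene in the 3 comparisons, with its 95% interval from limma and filled points where the adjusted p is under 0.05. In FBR against blood cells Fcgr2b (2.36) and Dok2 (2.29) lie farthest to the right, and Fcgr3a in in vitro activated cells (-2.36) farthest to the left.

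The ratios of Fcgr2b to Fcgr1a, Fcgr3a and Fcer1g were steadier in FBR cells than in the other groups, as was that of Fcgr1a to Fcgr3a. In blood cells the SD of these ratios was 0.90, 1.06, 0.58 and 0.55 on the log2 scale (n = 3 arrays). Relative to the mean of blood cells, Fcgr2b had gained 0.93 ± 0.04 more than Fcgr1a on the log2 scale in FBR cells (SD, n = 3, range 0.89 to 0.97), and 0.07 ± 0.99 in in vitro activated cells (SD, n = 3, range -0.94 to 1.03). Its gain over Fcer1g was 1.17 ± 0.10 in FBR and -0.15 ± 1.13 in in vitro activated cells (SD, n = 3 arrays). Over Fcgr3a its gain was alike in both, with 3.25 ± 0.27 in FBR and 3.15 ± 1.49 in in vitro activated cells (SD, n = 3 arrays). Fcgr1a against Fcgr3a, both activating, had shifted by 3.08 ± 0.75 after in vitro activation and 2.32 ± 0.25 in FBR cells (SD, n = 3 arrays). These ratios are given as a description, without a test. The spread of the single genes differed by gene. FBR arrays were closest to each other in Fcgr3a, Fcgr2b, Fcer1g and Inpp5d, in vitro activated arrays in Fcgr1a and Syk, and blood arrays in Dok2. The highest array exceeded the lowest by 1.05-fold to 1.32-fold in FBR cells, by 1.06-fold to 3.62-fold in in vitro activated and by 1.26-fold to 3.85-fold in blood cells. Over 14483 probe sets the median of this ratio was 1.37 in FBR, 1.52 in in vitro activated and 1.59 in blood cells, so over all probe sets the FBR arrays were closest to each other. Blood replicate 2 was the lowest of its group in 5 of the 7 genes, FBR replicate 3 in 5, and in vitro activated replicate 3 was the highest in 5.

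Over the 9 arrays, among 8229 genes measured on all of them with a mean signal of at least 100, the gene most like Fcgr1a was Tnfrsf1a (Pearson r = 0.992), followed by Pgls and Xdh (both 0.978). For Fcgr2b these were Serpinb2 (0.981), Ccl7 (0.971) and Ier3 (0.968), and for Fcer1g Anxa5 (0.984), Mrpl28 and Renbp (both 0.983). Fcgr3a was followed most closely by Gramd4 (0.957), Rhof and Srsf3 (both 0.934). Dok2 was closest to Oplah (0.990), Tnip2 (0.986) and Vldlr (0.981), and Inpp5d to Plcb1 (0.947), Ccdc97 (0.920) and Adss1 (0.918). Syk, over the 8 arrays on which it was measured, was closest to Usp11 (0.992), Ift88 (0.983) and Zfp869 (0.982). The closest genes of the 7 were all different. The arrays come from 3 groups, so these correlations mostly follow the group means and are given as a description.

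Among the other receptors for antibody, Fcer2, Fcrla, Fcmr and Pigr fell from blood to in vitro activated and to FBR cells. Of 9 measured genes, 5 fell and none rose from blood to in vitro activated cells (median -1.26, beside 0.05 for all probe sets). In FBR cells 1 was higher and 4 were lower (median -0.81, beside -0.17). Over all probe sets 11.4% rose and 13.4% fell in the first of these comparisons and 10.9% and 20.0% in the second. Without blood replicate 2, 3 of the 9 fell in in vitro activated cells, and 3 fell there at an adjusted p under 0.01. Fcer2, the low-affinity IgE receptor CD23, had a mean signal of 3455 ± 795 in blood, 110 ± 135 after in vitro activation and 15.2 ± 18.1 in FBR cells (SD, n = 3 arrays). Its log2 fold changes against blood were -5.30 (adjusted p = 0.00031) and -6.92 (adjusted p = 4.5e-05). Fcrla, an Fc receptor-like protein inside B cells, changed by -4.24 (adjusted p = 0.00013) and -4.90 (adjusted p = 3.5e-05). The IgM receptor Fcmr, with 2 measured blood arrays, changed by -3.22 (adjusted p = 0.02) and by -5.88 in FBR cells (adjusted p = 0.00067). Of the 9 genes 4 also stand in a marker list, Fcer2 and Fcrla among the B cell markers, and the B cell sum fell from 58296 to 80975 in blood to 2339 to 4687 in FBR cells. Pigr, the transporter of polymeric immunoglobulins, fell by 3.58 on the log2 scale in in vitro activated cells (adjusted p = 0.00025), to a mean signal of 26.7.

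The receptor of this family that rose in FBR cells was Fcgrt, the neonatal Fc receptor, which rescues internalised immunoglobulin G from breakdown. Its mean signal was 690 ± 182 in blood, 289 ± 113 after in vitro activation and 1556 ± 356 in FBR cells (SD, n = 3 arrays). In in vitro activated relative to blood cells Fcgrt was lower, with a log2 fold change of -1.26 (adjusted p = 0.025). FBR cells exceeded in vitro activated cells by 2.42 on the log2 scale (adjusted p = 0.0012) and blood cells by 1.16 (adjusted p = 0.028). The latter was lost without blood replicate 1 (adjusted p = 0.095) or 3 (0.072), without FBR replicate 1 (0.098) or 3 (0.081), and with a pseudocount of 1 (0.054). From in vitro activated to FBR cells 7.81% of all probe sets rose and 14.7% fell. Fcgrt alone of the 9 genes rose there, and Fcmr alone fell (-2.66, adjusted p = 0.031, median of the list -0.62 beside -0.24). It did not pass with a pseudocount of 1 (adjusted p = 0.06), in the 6 arrays alone (0.054) or with the replicate block (0.051). Nor did it pass without in vitro activated replicate 2 (0.056) or 3 (-1.80, 0.055) or without FBR replicate 2 (0.099) or 3 (0.1).

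Of 37 measured kinases and adaptors that act next to the receptors, 3 rose, 7 fell and 27 did not pass in in vitro activated relative to blood cells (median -0.21, beside 0.05 for all probe sets, of which 11.4% rose and 13.4% fell). The signals of Shc1, an adaptor toward Ras, rose from 1449 ± 208 to 4424 ± 96.6 (SD, n = 3 arrays, log2 fold change 1.61, adjusted p = 0.0011). Skap2, an adaptor of Src family kinases, rose by 1.30 (adjusted p = 0.0061) and the small GTPase Rac1, which drives the phagocytic cup, by 0.73 (adjusted p = 0.03). The call of Rac1 ended after quantile normalization (0.43, adjusted p = 0.18), with the 6 arrays compared alone (0.078), with the replicate block (0.057) and in 7 of the 9 fits without a single array (0.051 to 0.1). Vav2 (-2.97, adjusted p = 0.0039), Prkcb (-1.95, adjusted p = 0.0016) and Pik3cd (-1.79, adjusted p = 0.0034) fell most. In FBR relative to blood cells 3 rose, 11 fell and 23 did not pass (median -0.12, beside -0.17 for all probe sets, of which 10.9% rose and 20.0% fell). With median centring 8 rose, and without blood replicate 3 a single gene (1) did. Tyrobp, the ITAM adaptor DAP12, rose by 2.78 (adjusted p = 0.011). Its mean signal was 2234 on 2 measured blood arrays, which lay far apart (574 and 3894), and 10935 ± 4111 in FBR cells (SD, n = 3). The kinase Src rose by 1.57 (adjusted p = 0.017) and Shc1 by 0.77 (adjusted p = 0.036), and both calls ended in some alternatives. For Src the mean of all its probe sets gave 0.52 (adjusted p = 0.14), and without blood replicate 3 or FBR replicate 1 the adjusted p was 0.061 and 0.065. Shc1 did not pass without any single blood array (adjusted p from 0.055 to 0.092) nor without FBR replicate 2 or 3 (0.14 and 0.11).

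Prkcb, a protein kinase C that B cells use below their receptor, fell furthest in FBR cells, from 11877 ± 1533 in blood over 3225 ± 1431 in in vitro activated to 409 ± 81.9 (SD, n = 3 arrays). On the log2 scale this was -4.82 against blood (adjusted p = 7e-06) and -2.86 against in vitro activated cells (adjusted p = 0.00029). Blnk, the B cell linker and itself a B cell marker, was 7281 ± 2424 in blood and 7668 ± 2021 in in vitro activated cells and fell to 1357 ± 832 in FBR cells (SD, n = 3 arrays). This was -2.53 against blood (adjusted p = 0.0013) and -2.61 against in vitro activated cells (adjusted p = 0.002). Vav2 had a change of -3.60 against blood (adjusted p = 0.00091). Between FBR and in vitro activated cells 1 of the 37 rose, the adaptor Gab2 (1.77, adjusted p = 0.0025, mean signals 91.7 and 14.9), and 6 fell, with the kinase Tec at -2.09 (adjusted p = 0.0019), beside shares of 7.81% and 14.7% over all probe sets. The median was -0.15, beside -0.24. The number that rose depended on the processing, with 8 under median centring or the trend and robust options, 7 with the filter on low signals or a pseudocount of 64, 6 with the 6 arrays alone or array weights, 3 with the replicate block, and 8 without blood replicate 2.

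The inhibitory receptors and phosphatases beside Fcgr2b, Dok2 and Inpp5d moved in both directions. Of 24 measured genes 4 rose and 6 fell in in vitro activated relative to blood cells (median -0.20), 6 rose and 10 fell in FBR relative to blood cells (median -0.46), and 5 rose and 6 fell from in vitro activated to FBR cells (median -0.02). Over all probe sets 11.4% rose and 13.4% fell, 10.9% rose and 20.0% fell, and 7.81% rose and 14.7% fell in these comparisons, with medians of 0.05, -0.17 and -0.24. With median centring 5 fell in FBR relative to blood cells and 10 rose from in vitro activated to FBR cells, where the filter on low signals also gave 10 and leaving out blood replicate 2 gave 8. In in vitro activated relative to blood cells 2 rose without blood replicate 2, blood replicate 3 or in vitro activated replicate 1. Clec4a, a lectin with an ITIM, was at 284 ± 14.4 in blood, 14954 ± 5994 after in vitro activation and 339 ± 57.3 in FBR cells (SD, n = 3 arrays). On the log2 scale in vitro activated cells stood 5.57 above blood cells (adjusted p = 1.1e-05), and FBR cells differed from them by -5.34 (adjusted p = 7.3e-06). In FBR cells the sialic acid-binding receptor Siglec5 rose by 3.40 (adjusted p = 0.0069), Cd300a by 2.40 (adjusted p = 0.0028) and Lilrb4 by 1.78 (adjusted p = 0.0049) relative to blood, each known from human or mouse as a receptor with ITIMs. The spread of Siglec5 was wide, with 6796 ± 4441 in FBR cells (SD, n = 3). Against in vitro activated cells Siglec5 changed by 3.53 (adjusted p = 0.015), which did not pass without in vitro activated replicate 3 (2.63, adjusted p = 0.098), FBR replicate 2 (0.054) or FBR replicate 3 (0.053).

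Dok1, another docking protein of the family, fell in FBR cells, where Dok2 rose. Its signal was 1473 ± 244 in blood, 1273 ± 471 after in vitro activation and 190 ± 17.5 in FBR cells (SD, n = 3 arrays). The log2 fold change of Dok1 in FBR cells was -2.85 against blood (adjusted p = 9.7e-05) and -2.58 against in vitro activated cells (adjusted p = 0.0004), with no alternative that ended either call. Ptpn22, a phosphatase of lymphocyte receptor signaling, had log2 fold changes relative to blood of -5.42 (adjusted p = 2.9e-05) in in vitro activated and -5.12 (adjusted p = 1.8e-05) in FBR cells, beside the loss of B and T cell markers. Cd22, an inhibitory receptor of B cells, fell by 3.57 in in vitro activated cells (adjusted p = 1.8e-05) and stood 1.97 above in vitro activated in FBR cells (adjusted p = 0.00039). In the latter comparison 4 of the 10 B cell markers fell, beside 14.7% of all probe sets. RasGAP itself (Rasa1), the partner of the Dok proteins, was 1097 ± 180 in blood, 4207 ± 654 after in vitro activation and 723 ± 126 in FBR cells (SD, n = 3 arrays). It rose by 1.93 in in vitro activated over blood cells (adjusted p = 0.00048) and had a log2 fold change of -2.52 from in vitro activated to FBR cells (adjusted p = 0.00016). The ubiquitin ligase Cblb, which limits ITAM signals, stood 2.05 above in vitro activated in FBR cells (adjusted p = 0.00062, 2 measured FBR arrays).

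Of 7 measured receptors and integrins that signal through ITAM adaptors or a like motif, 3 rose and 1 fell in in vitro activated cells (median 1.34), and 4 rose and 2 fell in FBR cells (median 0.91), each relative to blood. The shares over all probe sets were 11.4% higher and 13.4% lower (median 0.05), and 10.9% higher and 20.0% lower (median -0.17). In FBR cells 2 rose after quantile normalization or without any single FBR array, and 1 fell with median centring, the replicate block or without blood replicate 2 or 3 or FBR replicate 2 or 3. Without blood replicate 1, 2 fell in in vitro activated cells. Trem2, a lipid receptor that signals through DAP12, had signals of 55.1 ± 73.0 in blood, 7944 ± 3643 after in vitro activation and 803 ± 568 in FBR cells (SD, n = 3 arrays). Relative to blood cells, in vitro activated cells were higher by 7.22 (adjusted p = 8e-05) and FBR cells by 3.82 (adjusted p = 0.002), with a change of -3.40 from in vitro activated to FBR cells (adjusted p = 0.0063). The β-glucan receptor Clec7a rose in both groups, by 1.60 (adjusted p = 0.0082) and 1.26 (adjusted p = 0.02), and the latter did not pass after quantile normalization (0.71, adjusted p = 0.21) or without FBR replicate 1, 2 or 3 (adjusted p = 0.053, 0.064 and 0.054). Itgam, the α chain of the receptor Mac-1 for fibrinogen and complement and a macrophage marker, rose by 2.00 in FBR cells (adjusted p = 0.014). Its partner Itgb2 rose by 1.34 in in vitro activated cells (adjusted p = 0.0095). Itgb3, the β3 integrin that platelets also carry, fell by 2.30 (adjusted p = 0.00069) and 1.43 (adjusted p = 0.0068), while 3 and 4 of 7 platelet markers fell. In FBR cells the platelet marker Pf4 rose from a mean signal of 4777 to 17587 (log2 fold change 1.90, adjusted p = 0.0018). The platelet sum was 5161 to 9021 in blood and 14250 to 21374 in FBR cells, where Pf4 alone gave 13988 to 21089. Ncr1, a receptor of NK cells, fell by 1.21 in FBR cells (adjusted p = 0.033), from a mean signal of 38.6 to 6.13, both low on these arrays. The call ended with a pseudocount of 64 (adjusted p = 0.068), median centring (-0.84, 0.11), the replicate block (0.057), and without blood replicate 2 (0.085) or 3 (0.12) or FBR replicate 2 (0.11) or 3 (0.098). Trem2 was the 1 gene of these 7 that passed between FBR and in vitro activated cells (median -0.32, beside -0.24 for all probe sets). Over all probe sets 7.81% were higher and 14.7% lower in that comparison.

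**Figure D4:**
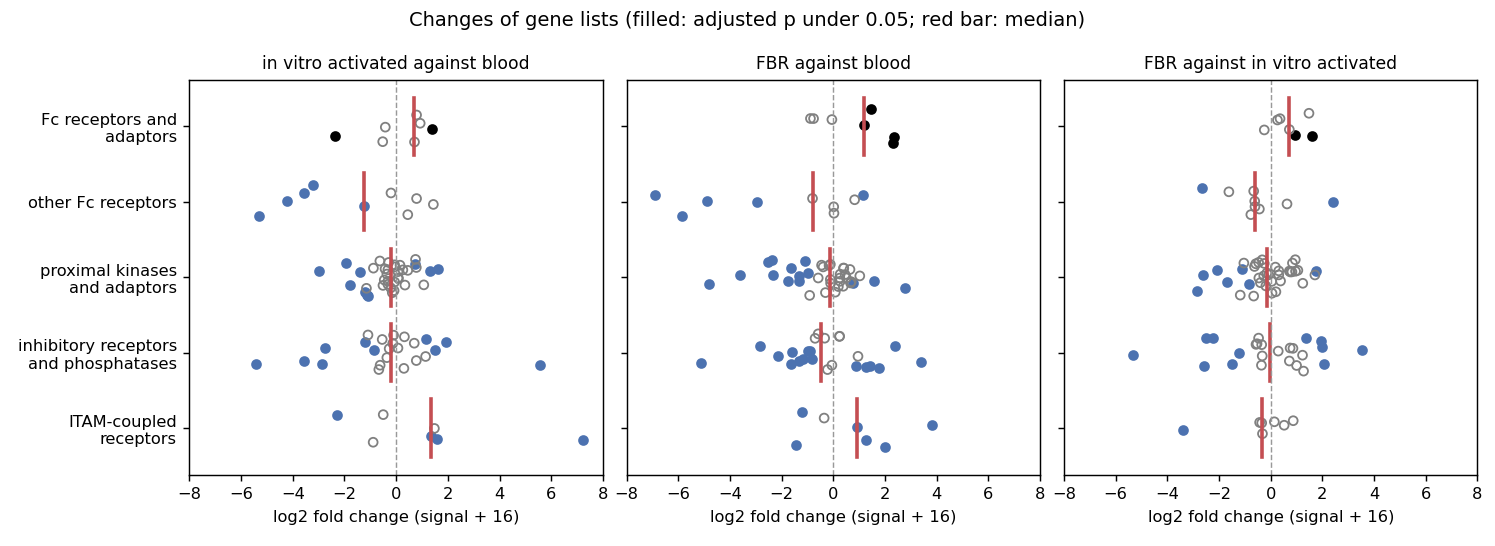
Log2 fold change (signal plus 16) of each gene of the Fc receptor set and of the 4 lists of related genes in the 3 comparisons, with filled points where the adjusted p is under 0.05 and a red bar at the median of the list. In FBR against blood cells the median of the Fc receptor set is 1.19, while those of the other Fc receptors (-0.81), the proximal kinases and adaptors (-0.12) and the inhibitory receptors and phosphatases (-0.46) lie under 0, and that of the ITAM-coupled receptors is 0.91.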

How the data were processed

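CD68+ cells from blood, in vitro activation and FBR were each hybridised on 3 Affymetrix rat genome arrays after a double-round T7 amplification. The deposited intensity values are MAS5 signals, which the authors scaled to a common trimmed mean. Many had lost their decimal point: of 279891 values 43241 (15.4%) of 6 or 7 digits were divided by 1000, 184 were read back from dates and 2922 (1.04%) with more than 1 reading were left missing. Among the 7 genes, Fcgr3a and Dok2 alone had no such value. The authors' comparison tables, with log2 fold changes and p-values from RMA, were not used. Scanner files and detection calls are not analysed here.

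The log2 of the signal plus 16 was fitted with limma 3.58.1 (lmFit, eBayes) in R 4.3.3, with 1 mean per group over all 9 arrays, and calls were made at an adjusted p under 0.05 (Benjamini-Hochberg, 31099 probe sets). Fold changes on this scale understate changes of low signals. The number of arrays limits the precision. The fit was also run on simulated data with added changes, and the outcome of that run is not given here. Gene names came from the platform annotation, each gene being read from its single-symbol probe set with the highest mean signal. Tables and figures were made with Python 3.11.15, numpy 2.4.6, pandas 2.3.3 and matplotlib 3.10.9.

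All measured genes of the set are named, and of each related list the 3 genes with the largest called change per direction, of which the text shows most. The marker lists were of macrophages, B, T and NK cells, neutrophils, mast cells with basophils and eosinophils, platelets, fibroblasts, mesothelial and dendritic cells. The genes and lists were chosen with earlier results of these data known. Same-numbered arrays of different groups did not deviate together (r from -0.06 to 0.07 over 9 pairs), so no pairing was used. Alternatives were pseudocounts of 1 and 64, a filter on low signals (over 100 on at least 3 arrays), median centring, quantile normalization, a replicate block, fits of 6 arrays only, array weights, eBayes with trend and robust estimation, single arrays left out, means over probe sets, probe sets with no restored or missing value, an adjusted p under 0.01 and, chosen after seeing the data, unclear values read by the other arrays.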

Additional observations from a re-analysis of the deposited data

How the results depend on the processing

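The 7 genes in 3 comparisons gave 447 values under the alternatives. Of these 403 kept their direction and their side of the threshold, 23 newly passed, 18 no longer passed and 3 changed sign. The sign changes were Inpp5d in FBR against blood cells (0.31 with median centring, 0.18 without blood replicate 1, and -0.32 to 0.18 over all single arrays left out) and Syk in FBR against in vitro activated cells (0.06 with median centring), none of which passed in either form. The number of genes that passed in FBR against blood cells was 4, with 2 passing an adjusted p under 0.01. A single gene (1) passed when restricted to probe sets with no restored or missing value, which left 2 genes. Leaving out single arrays gave 2 to 4, with 2 without FBR replicate 1 and 2 without FBR replicate 2. In FBR against in vitro activated cells the number was 2, with 0 passing an adjusted p under 0.01 and 0 with unrestored probe sets alone. Leaving out single arrays gave 0 to 3, with 0 without FBR replicate 1 or 2 and 1 without in vitro activated replicate 1 or 2. In in vitro activated against blood cells it was 2, and 2 to 3 without single arrays. The replicate block gave 2 genes in in vitro activated against blood, 4 in FBR against blood and 3 in FBR against in vitro activated cells. The added gene was Fcgr3a (1.48, adjusted p = 0.05), and the block changed no other call of the 7 genes. The cause of these changes was not tested. Over all probe sets the median in FBR against blood cells was -0.17 on the log2 scale, against 0.19 with median centring and 0.00 with quantile normalization. In FBR against in vitro activated cells it was -0.24, against 0.10 and -0.05. Of the probe sets called between FBR and blood cells, the share with the higher value in FBR was 35.3%, against 56.9% with centring and 47.6% with quantile normalization. Against in vitro activated cells the share was 34.7%, 62.2% and 48.3%. Fcgr2b and Dok2 passed as higher in FBR relative to blood cells under all 3 scalings.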

Other observations

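A pair of probe sets carries the symbols Fcgr2a and Fcgr2al1 together, and their signals cannot be assigned to either gene. The first, 1367850_at, gave 16480, 8602 and 16282 in blood, 24924 and 38676 on the 2 measured in vitro activated arrays and 35238, 41621 and 30579 in FBR cells. The log2 fold change against blood was 1.23 (adjusted p = 0.037) for in vitro activated and 1.43 (adjusted p = 0.0092, limma) for FBR cells, and 0.19 between FBR and in vitro activated cells (adjusted p = 0.75). The other, 1398246_s_at, gave 9815, 2700 and 9864 in blood, 21041, 15597 and 23672 in in vitro activated and 32738, 44679 and 31602 in FBR cells. Its log2 fold changes against blood were 1.63 (adjusted p = 0.027) and 2.48 (adjusted p = 0.0023), and 0.86 between FBR and in vitro activated cells (adjusted p = 0.22). On both probe sets all blood arrays lay below all other arrays, and blood replicate 2 was the lowest.

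Markers of other cells were measured beside these genes. The summed signal of 8 neutrophil markers was 669 to 2611 in blood, 381 to 933 in in vitro activated and 2944 to 3506 in FBR cells, and 4 of the 8 rose from in vitro activated to FBR cells. That of 7 platelet markers was 5161 to 9021, 3994 to 8206 and 14250 to 21374, where 1 rose and 4 fell in FBR relative to blood cells. The marker that rose, Pf4, alone gave 13988 to 21089 on the FBR arrays and so most of their platelet sum. Fibroblast markers (10 genes) summed to 627 to 953, 453 to 944 and 856 to 2063, with 5 higher and 1 lower in FBR than in blood cells. For 6 mesothelial markers the sums were 204 to 252, 271 to 524 and 239 to 827, with 2 higher in FBR than in blood cells, and for 4 dendritic cell markers 5536 to 13700, 23818 to 26407 and 11838 to 25337, with none called between FBR and blood cells.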
